A study of Mus musculus with 16 samples.

Results

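Liver tumors of mice fed a ketogenic diet (KD) were compared with the nontumor liver taken from mice on the same diet. The comparison uses 8 of the series' 16 RNA-seq libraries, namely 4 from KD tumor and 4 from KD nontumor tissue, and it is described over the 13432 of 20601 listed genes with a TPM of 1 or more in 4 or more of the 16 libraries. The remaining 8 libraries, 4 of tumor and 4 of nontumor liver on a normal diet (ND), share the same model. They enter the expression filter, the scaling and the estimate of the spread, and their own tumor differences are given where they are set beside those on KD.

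All mice of all 4 groups carried the same tumor model. Hydrodynamic injection delivered 19 µg of a human N-Ras construct and 1 µg of a human c-Myc construct per mouse, with 2 µg of a plasmid for the Sleeping Beauty transposase, an enzyme that inserts the transgenes into the DNA of the hepatocytes that take them up. From week 4 after delivery the KD mice ate a diet of 89.5% fat, 10.4% protein and 0.1% carbohydrate for 4 weeks, while the ND mice stayed on a normal diet, and tissue was taken at week 8. Nontumor tissue is therefore not untreated liver: it comes from the same injected animals, and the labels name no uninjected or transgene-free control. The 16 samples came from 8 mice, and strain, sex and age were not given in the sources used here. Because the labels do not say which samples came from which mouse, the p-values reflect only how much these samples vary, which may be partly technical.

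A ketogenic diet supplies almost no carbohydrate, so that the liver takes in fatty acids, shortens them by beta-oxidation in mitochondria and peroxisomes, and turns the product into ketone bodies for export. The nuclear receptor PPARα switches on much of this program during fasting and fat feeding, while glucose is made from amino acids, lactate and glycerol. RAS proteins relay growth signals through the ERK kinase cascade, and MYC is a transcription factor that binds the E-box CACGTG and drives ribosome production and cell growth. Bulk tissue holds hepatocytes, tumor cells, macrophages, endothelium and stellate cells together, and fewer cells of a type cannot be told apart from less RNA per cell in such samples.

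Read numbers recovered from the deposited values gave 8064558 to 12892444 reads over the listed genes other than albumin (Alb) in KD tumor. KD nontumor 1 and 2 had 10529325 and 10378761 reads, and KD nontumor 3 and 4 had 6007659 and 5460266. The same pairs stood apart in another way, for which each gene's log2 level was taken as its deviation from its mean over all 16 libraries. Spearman's rho of this deviation with exon length, across genes, was -0.07 and -0.09 in nontumor 1 and 2. It was 0.21 and 0.19 in nontumor 3 and 4, and -0.25 to -0.10 in the tumor libraries. Tumor and nontumor libraries separated on the first principal component (46.7% of the variance), with KD nontumor between -65.4 and -27.4 and KD tumor between 23.0 and 52.9. ND nontumor 4, which shares the fit's spread but enters no KD group mean, stood apart from the other 15 libraries: its listed genes held 7.38% of the TPM total, and 4410 genes passed on KD without it. Alb was the most abundant listed gene in all 8 KD libraries. Its reads were not recovered, so the read numbers leave it out. It held 2.7 to 5.5% of the listed TPM in KD nontumor and 8.3 to 10.7% in KD tumor. The lists most affected by which nontumor pair is the reference are given with 1 pair alone beside the full count.

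Levels below are TPM (a read share corrected for gene length and set to a fixed total) rescaled so that the median gene is equal across libraries, with values in the order of replicates 1 to 4. Changes are log2 fold changes, tumor minus nontumor, of log2(rescaled TPM + 1), given ± SE from a limma fit with 4 libraries per group, and "rose" and "fell" are used only for a Benjamini-Hochberg adjusted p under 0.05. The added 1 makes the fold change of a weakly expressed gene smaller than its true change.

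On the ketogenic diet 4361 genes passed the test, which is 32.5% of those tested. Of these, 2187 rose in tumor (16.3%) and 2174 fell (16.2%). Over all tested genes, called or not, the 4 tumor and 4 nontumor values did not overlap for 4448 (33.1%). Most changes were moderate, with a median of 1.03 among genes that rose and -0.95 among those that fell. A change of at least 4-fold was reached by 244 genes that rose and 225 that fell, and a change of at least 16-fold by 17 and 20. The even split rests on the rescaling: on the deposited TPM scale the median gene moved to -0.26, 1111 genes passed and 387 of them rose, and with listed genes scaled to a common sum 4023 passed and 1197 of them rose. With the 8 KD libraries alone on the deposited scale, 4627 passed and 25.0% of them rose. Genes that passed both with rescaling and on any of these scales had the same direction in each. With KD nontumor 1 and 2 as the only nontumor reference 1964 genes passed, and with KD nontumor 3 and 4 alone 5208 did.

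**Figure D1:**
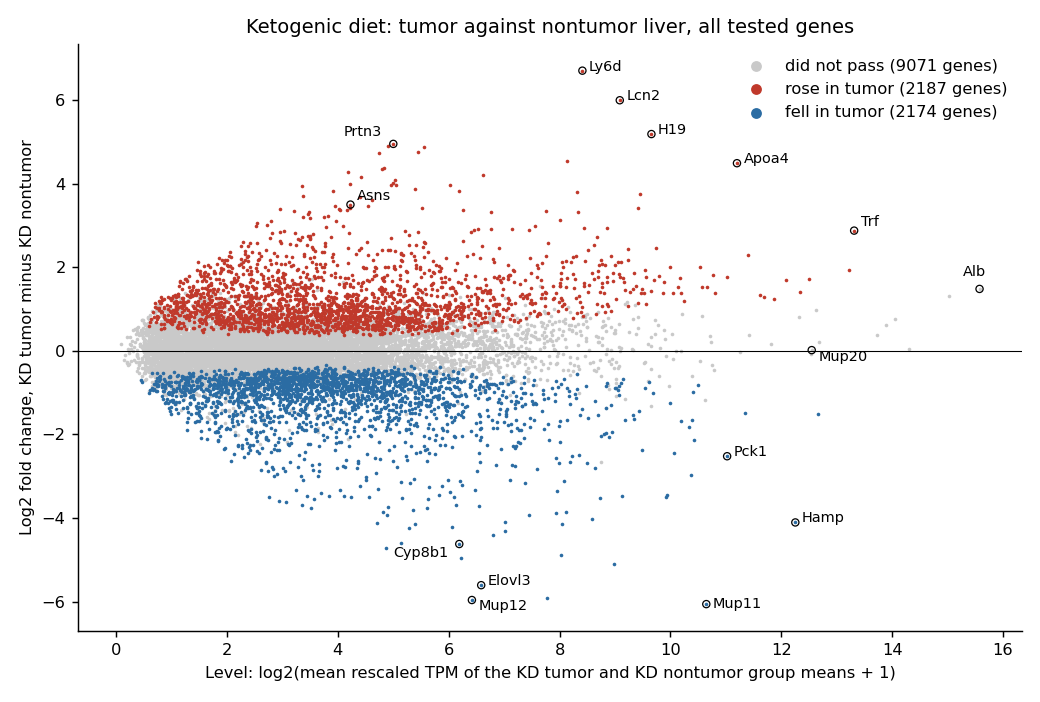
Each point is 1 of 13432 tested genes, with its mean level in KD tissue on the x axis and the log2 fold change of KD tumor against KD nontumor on the y axis. Red and blue points are the 2187 genes that rose and the 2174 that fell, Mup11 lies lowest at -6.06, Ly6d highest at 6.70, and Mup20 lies close to 0 at a high level.

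Male-biased liver genes were prominent among the 12 largest falls in tumor. Mup11, a major urinary protein that male liver secretes for scent signalling, stood at 3624, 2991, 1810 and 4208 in nontumor and 77.02, 34.8, 35.8 and 39.5 in tumor (-6.06 ± 0.36, adjusted p = 4.69e-08). All 4 tumor libraries lay far below the lowest nontumor library. Mup12 (-5.96 ± 0.42), Mup7 (-5.11 ± 0.78) and Mup1 (-4.61 ± 0.36) fell with it, although reads of these near-identical copies can be split between them in uncertain ways. Elovl3, which lengthens saturated fatty acids, went from 345, 238, 80.1 and 85.9 to 1.52, 6.24, 0.666 and 2.4 (-5.61 ± 0.57, adjusted p = 4.87e-06). Its nontumor levels were higher in replicates 1 and 2 than in 3 and 4, and every tumor value was far below both pairs. Hsd3b5, a male steroid dehydrogenase, fell by 4.71 ± 0.39.

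Enzymes that act on fatty acids, sterols and drugs were among the rest of the 12 largest falls. Cyp4a14, a microsomal hydroxylase that attacks the far end of fatty acids, was at 872, 575, 269.9 and 282 in nontumor and 6.04, 11.2, 8.76 and 57.6 in tumor (-4.89 ± 0.65, adjusted p = 5.91e-05). Tumor 4 kept the most, and still had less than the lowest nontumor library. Cyp8b1, the sterol 12-alpha-hydroxylase that sets the cholic acid share of bile, was at 185, 162, 70.6 and 141 and 5.75, 4.24, 3.78 and 3.95 (-4.62 ± 0.37, adjusted p = 4.74e-07). The drug-metabolizing P450s Cyp2c54 (-5.92 ± 0.46) and Cyp2c50 (-4.31 ± 0.52), the carboxylesterase Ces1b (-4.95 ± 0.43) and the aldehyde oxidase Aox3 (-4.4 ± 0.43) completed the set.

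The largest gain was that of Ly6d, a small surface protein of epithelial progenitors, at 7.505, 39.8, 0.607 and 0.374 in nontumor and 855, 1159, 455 and 198 in tumor (6.7 ± 0.90, adjusted p = 6.31e-05). Lcn2, an iron-siderophore binding protein made in the acute phase response, was at 19.5, 157, 0.775 and 9.33 in nontumor and 1440, 1113, 971 and 628 in tumor (5.995 ± 0.88, adjusted p = 0.000126). In both genes nontumor 2 was the highest nontumor library and tumor 4 the lowest tumor library, and the groups did not overlap. Prtn3, a serine protease known from neutrophil granules, went from 1.61, 1.48, 0 and 1.12 to 44.7, 52.5, 92.8 and 53.8 (4.95 ± 0.29, adjusted p = 4.69e-08). The defining neutrophil genes Ly6g, Mpo, Elane, Ltf, Camp, Ngp, Mmp8 and Mmp9 were below the expression filter. Of the 6 neutrophil markers tested Prtn3 alone passed, while the median was 1.06. The summed level of all 14 listed markers, Prtn3 included, was 20.9 to 71.2 in nontumor and 102.8 to 166 in tumor. Prtn3 by itself gave 44.7 to 92.8 of these tumor sums.

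Other large gains were spread over lipid handling, cell division and secretion. Pnpla5, a lipid droplet lipase, was at 0.0714, 3.53, 0 and 0.128 in nontumor and 40.1, 34.2, 129.8 and 22.6 in tumor (4.91 ± 0.57, adjusted p = 1.74e-05). Psrc1, which encodes a spindle protein, went from 1.52, 3.49, 0.9404 and 1.07 to 87.9, 109.6, 139.8 and 24.01 (4.88 ± 0.44). Apoa4, an apolipoprotein induced in fatty liver, went from 295, 1033, 33.1 and 117 to 4741, 4197, 5567 and 2826 (4.49 ± 0.68, adjusted p = 0.000164). This gene already reached 1033 in nontumor 2 and remained below every tumor library. Cdkn2a, which encodes the cell cycle inhibitor p16 and the p53 activator p19ARF, was at 2.65, 1.41, 0 and 0.712 in nontumor and 22.2, 72.97, 101 and 14.2 in tumor (4.36 ± 0.57, adjusted p = 4.87e-05). Galnt6 (4.75 ± 0.51), which starts mucin-type glycosylation, Spink1 (4.74 ± 0.58), a trypsin inhibitor, Akr1c18 (4.54 ± 0.62), a steroid reductase, Cd63 (4.21 ± 0.52), a lysosome and exosome membrane protein, and Sprr1a (4.27 ± 0.77), an epithelial envelope protein, rose as well. Spink1 and Sprr1a were listed at 0 in 2 and 3 nontumor libraries.

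**Figure D2:**
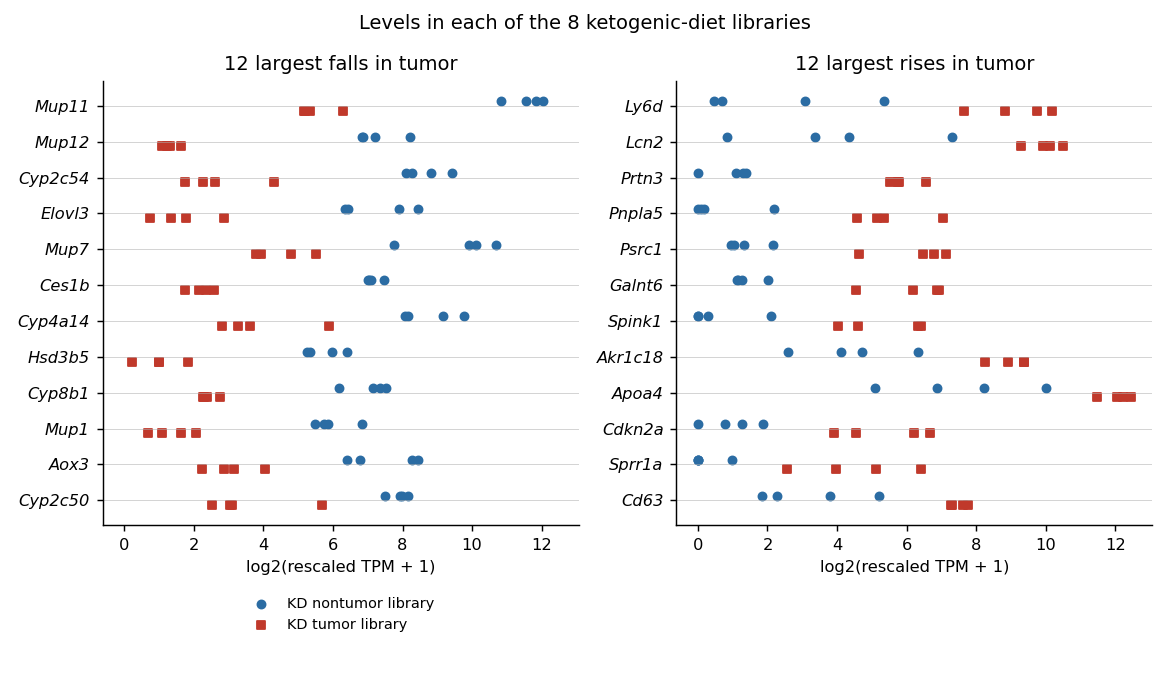
Each dot is the log2(rescaled TPM + 1) of 1 of 4 KD nontumor (blue circles) or 4 KD tumor libraries (red squares) for the 12 genes with the largest falls and the 12 with the largest rises. Blue and red never overlap in these genes, because the rule that chose them asked for that, and the nontumor spread is wider among the rises, as for Lcn2 (0.775 to 157).

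Among genes that rose, nontumor 2 was the highest nontumor library in 53.4% and nontumor 3 the lowest in 53.5%, while tumor 4 was the lowest tumor library in 45.5%. Among genes that fell, nontumor 2 was the lowest nontumor library in 51.0% and nontumor 3 the highest in 51.1%, while tumor 4 was the highest tumor library in 44.3%. Nontumor 2 and tumor 4 thus lay closest to the other tissue in many genes. What these libraries differ in beyond the values given was not tested. With both left out, 4361 genes passed, of which 3878 also passed with them.

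Some very abundant liver transcripts hardly differed between tumor and nontumor. Mup20, another major urinary protein, was at 10940, 7708, 2057 and 4698 in nontumor and 3641, 5225, 5514 and 8138 in tumor (0.02 ± 0.48, adjusted p = 0.982), unlike Mup11. Its tumor values all lay inside the nontumor range, while on the normal diet its difference was -1.57 (adjusted p = 0.0211, interaction adjusted p = 0.235). The apolipoprotein Apoa2 (0.05 ± 0.56), the MHC class I light chain B2m (-0.06 ± 0.34) and the antitrypsin gene Serpina1c (-0.02 ± 0.34) also differed by less than 0.1, each with overlapping groups.

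The mouse genes matching the transgenes did not rise. Mouse Nras was at 9.48, 8.35, 7.25 and 7.72 in nontumor and 9.49, 11.6, 8.22 and 8.48 in tumor (0.18 ± 0.15, adjusted p = 0.39), and mouse Myc at 21.1, 20.4, 6.57 and 6.55 and 5.03, 10.4, 3.44 and 3.05 (-1.11 ± 0.40, adjusted p = 0.0414). Myc was higher in nontumor 1 and 2 than in 3 and 4, whose values overlap those of tumor, and its fall passed in 12 of 22 alternative settings. Transcripts of the human transgenes were not analysed here, so these values do not check the labels. Whether reads of the human transgenes were counted in mouse Nras and Myc was not tested. Classical liver tumor genes did separate the tissues. Afp, the fetal albumin-like protein, was at 3.41, 2.46, 3.09 and 2.89 in nontumor and 416, 104, 33.3 and 5.45 in tumor (3.82 ± 0.83, adjusted p = 0.00245), a wide range in which tumor 4 stood just above nontumor liver. Gpc3, a cell surface proteoglycan used as a tumor marker, went from 1.499, 4.305, 0.084 and 0.827 to 33.3, 23.03, 42.7 and 9.84 (3.46 ± 0.52, adjusted p = 0.000153).

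The following groups of genes were written as lists, and each is described by how many tested members rose and fell, to be read against the 16.3% that rose and 16.2% that fell among all genes. The plot of all 42 lists shows them ordered by their median. Lists share members, so that 1 gene can count in more than 1 list. Cyp2c50 is in the pericentral and phase I lists, for example, and Elovl3 in the male-biased and fatty acid synthesis lists. Fewer members passed, by over 1.5 times, in 23 of the 42 lists with nontumor 1 and 2 as the only reference and in 35 on deposited TPM with all 16 libraries in the fit. With nontumor 3 and 4 as the only reference this was so in 1 list.

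**Figure D3:**
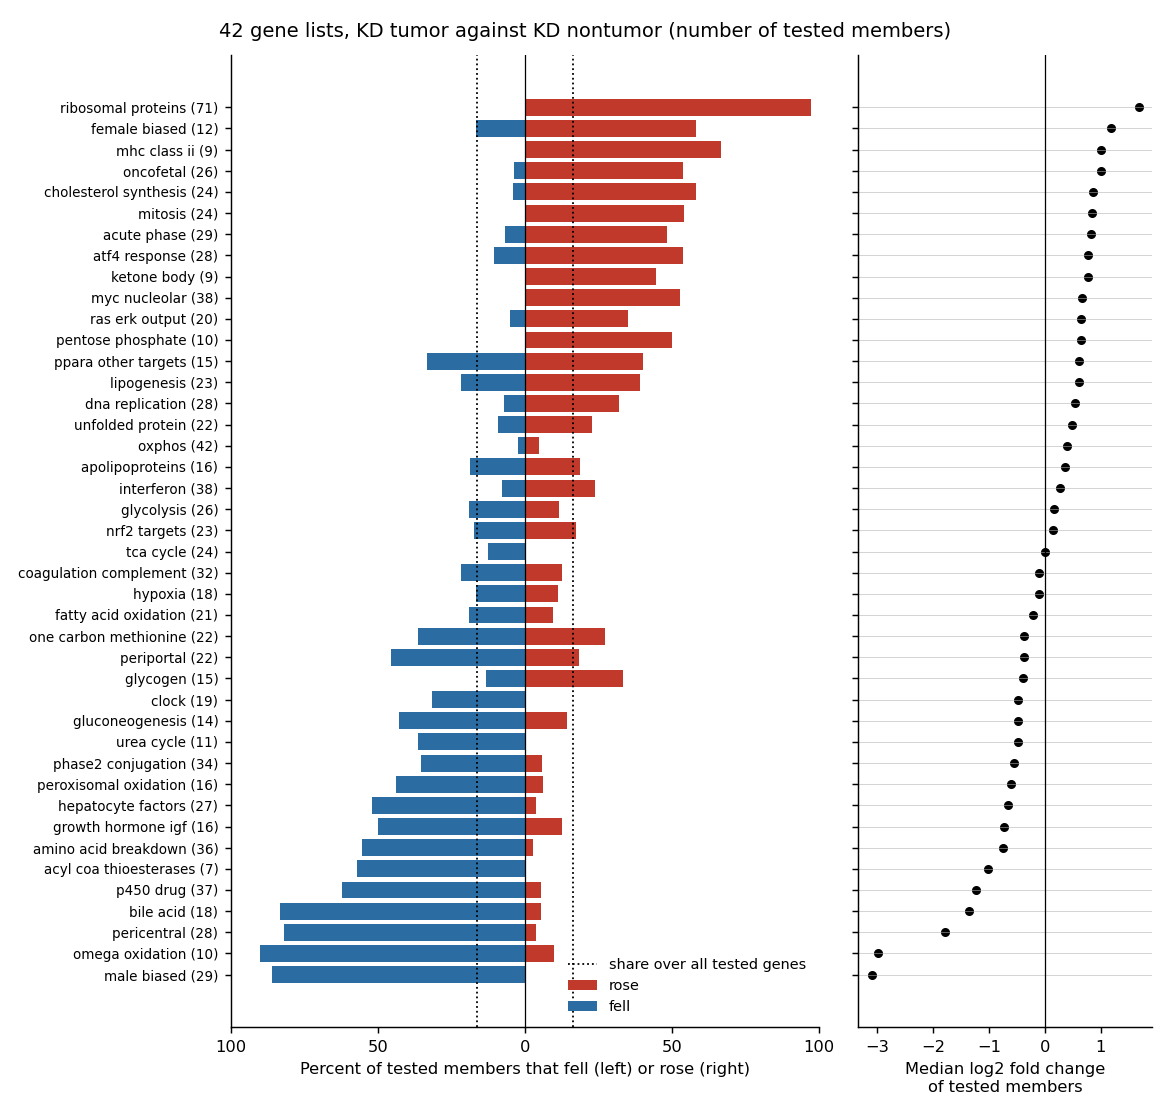
Bars give the percent of tested members of each of 42 gene lists that fell (blue, left) or rose (red, right) in KD tumor against KD nontumor, dotted lines mark the shares over all tested genes (16.2% and 16.3%), and points give the list's median log2 fold change. Ribosomal proteins (69 of 71 rose) and male-biased genes (25 of 29 fell) are at opposite ends.

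Fat oxidation genes fell mainly in peroxisomes and microsomes, and the mitochondrial list had a share of changed genes near the background. Of 21 tested genes of the carnitine shuttle and mitochondrial beta-oxidation, 4 fell and 2 rose, with a median of -0.22 (0.10 with nontumor 3 and 4 as the only reference). Cpt1a, the carnitine palmitoyltransferase that admits long-chain fatty acids to mitochondria, was at 57.03, 70.2, 76.2 and 86.9 in nontumor and 85.2, 97.7, 126 and 158 in tumor (0.65 ± 0.21, adjusted p = 0.0273). Nontumor 4 alone exceeded the lowest tumor library, and the gene passed in 13 of 22 alternative settings. Acadm, the medium-chain dehydrogenase, moved the other way, from 251, 204, 154 and 201 to 93.5, 90.98, 116 and 138 (-0.88 ± 0.22, adjusted p = 0.0054). The very-long-chain dehydrogenase Acadvl (-1.09 ± 0.27), the isomerase Eci2 (-1.58 ± 0.20) and the acyl-CoA synthetase Acsl1 (-1.27 ± 0.27) fell, and its relative Acsl5 rose (1.71 ± 0.23, adjusted p = 6.99e-05). The abundant Acaa2 (0.03 ± 0.32) and Etfa (-0.58 ± 0.23) did not pass.

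Peroxisomal and microsomal oxidation fell more widely. Of 16 peroxisomal genes 7 fell and 1 rose (median -0.61), among them the thiolases Acaa1b (-1.83 ± 0.34) and Acaa1a (-1.44 ± 0.21) and the bifunctional enzyme Ehhadh (-1.3 ± 0.45, adjusted p = 0.0358), which failed the test under 11 of 22 alternatives. Acaa1b had 1733, 1375, 2116 and 2802 in nontumor and 385, 506, 818 and 553 in tumor, with no overlap. The exception was Abcd2, a peroxisomal importer of very long fatty acids, which rose from 5.84, 10.9, 0.836 and 2.25 to 21.3, 14.4, 26.6 and 30.02 (2.31 ± 0.44, adjusted p = 0.000944). All 10 tested omega-oxidation genes passed, 9 down and Cyp4a31 up, with a median of -2.99. Cyp4a10, a classical PPARα target, was at 882, 668, 174 and 345 in nontumor and 18.9, 24.7, 17.4 and 85.1 in tumor (-3.86 ± 0.57, adjusted p = 0.000148), and Cyp4f14 at 72.8, 62.9, 107 and 114 and 5.09, 6.47, 9.69 and 13.6 (-3.25 ± 0.25). The Cyp4a genes are close copies, so the split of reads among them is uncertain. Of 7 acyl-CoA thioesterases 4 fell, led by cytosolic Acot1 (-2.88 ± 0.28) and joined by Acot3, Acot4 and Acot12, while mitochondrial Acot2 (-1.01 ± 0.47) and Acot13 (0.61 ± 0.33) did not pass.

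Ketone body genes leaned upward. Of 9 tested members 4 rose and none fell (median 0.78). Bdh1, which converts acetoacetate to beta-hydroxybutyrate, was at 129, 152, 47.8 and 75.9 in nontumor and 231, 272, 417 and 298 in tumor (1.68 ± 0.31, adjusted p = 0.000828), and all tumor values exceeded all nontumor values. Oxct1, the ketone-using transferase that normal hepatocytes keep silent, rose from a low level, at 0.671, 0.894, 0.855 and 0.601 in nontumor and 1.77, 3.38, 1.92 and 2.08 in tumor (0.88 ± 0.23, adjusted p = 0.00798). The monocarboxylate carrier Slc16a6 (0.81 ± 0.22) and the cytosolic Bdh2 (0.95 ± 0.31) rose too. Against nontumor 1 and 2 as the only reference 1 of the 9 rose and the median was 0.09.

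Other PPARα targets split by direction, with 6 of 15 rising and 5 falling. Fgf21, a hepatokine of fasting and protein shortage, was at 57.7, 48.4, 63.2 and 43.6 in nontumor and 124, 143, 114 and 125 in tumor (1.24 ± 0.27, adjusted p = 0.00246). All 4 tumor values were above the nontumor values. The lipid droplet genes Cidec (1.52 ± 0.45) and Hilpda (1.68 ± 0.42) rose, as did Plin2, Cd36 and Ucp2. Angptl4, a lipoprotein lipase inhibitor, was at 134, 94.96, 164 and 202 and 29.8, 37.6, 36.8 and 51.7 (-1.88 ± 0.28, adjusted p = 0.00013), and the lipid droplet protein of oxidative tissue, Plin5, fell (-1.5 ± 0.23), as did Ppara itself, Creb3l3 and G0s2. The median of this list changed sign with the reference, from 0.62 to -0.30 with nontumor 1 and 2 alone and to -0.11 with length and GC trends removed. Fabp1, the fatty acid carrier of liver, ranged from 3398 to 21960 in nontumor and from 14830 to 20730 in tumor, and did not pass (0.62 ± 0.59, adjusted p = 0.443).

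Fatty acid synthesis and desaturation genes rose more often than they fell, with 9 of 23 up and 5 (Elovl3, Mlxipl, Lpin1, Dgat1, Acss2) down. The fall of Lpin1 passed in 9 of 22 alternatives. Scd1, the stearoyl-CoA desaturase that makes oleate, was at 23.1, 77.5, 51.04 and 57.3 in nontumor and 487, 679, 461 and 213 in tumor (3.12 ± 0.39, adjusted p = 3.08e-05), and its paralog Scd2 at 1.25, 7.73, 0.207 and 0.967 and 48.7, 51.9, 38.4 and 11.5 (3.69 ± 0.51). Fasn, fatty acid synthase, was at 46.8, 51.2, 124 and 182 and 99.9, 195, 262 and 99.5 and did not pass (0.80 ± 0.39, adjusted p = 0.126). Srebf1, the lipogenic transcription factor, did not pass either (-0.45 ± 0.39, adjusted p = 0.387). Fasn was higher in nontumor 3 and 4 than in nontumor 1 and 2. The list's median, 0.62, was 1.28 with nontumor 1 and 2 as the only reference and 0.00 with nontumor 3 and 4. The triglyceride synthase Dgat2 (-0.05 ± 0.18) had nearly equal group levels.

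More cholesterol synthesis genes rose than fell, and the reverse held for bile acid genes. Of 24 genes of cholesterol synthesis and its control 14 rose and 1, Tm7sf2, fell (median 0.87). Against nontumor 1 and 2 as the only reference 5 rose, none fell and the median was 0.62. The fall of Tm7sf2 passed in 11 of 22 alternatives. Dhcr7, which completes cholesterol, was at 14.8, 25.4, 9.13 and 18.4 in nontumor and 96.1, 90.6, 59.4 and 37.7 in tumor (1.996 ± 0.30, adjusted p = 0.00017). Sqle (1.7 ± 0.42) and Cyp51 (1.67 ± 0.48) rose as well, while Hmgcs1 (1.09 ± 0.46) and Ebp (0.06 ± 0.38) did not pass. On the deposited scale none passed with all 16 libraries in the fit, and with the 8 KD libraries alone 6 rose and 2 fell.

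Of 18 bile acid genes 15 fell and 1, Cyp39a1, rose (median -1.36). Cyp7a1, the hydroxylase that starts the classical route from cholesterol to bile acids, was at 15.3, 18.7, 17.9 and 24.2 in nontumor and 1.54, 1.14, 1.58 and 4.45 in tumor (-2.74 ± 0.25, adjusted p = 1.93e-06), and the sterol 27-hydroxylase Cyp27a1 at 692, 543, 849.9 and 1050 and 74.7, 55.4, 53.7 and 82.9 (-3.52 ± 0.22, adjusted p = 4.69e-08). Both fell in every tumor library by a wide margin. The oxysterol hydroxylase Cyp7b1 (-4.22 ± 0.45) and the uptake transporter Slco1a1 (-3.76 ± 0.28) followed. Nr0b2, the repressor known as SHP, had overlapping groups (0.11 ± 0.27, adjusted p = 0.781). Apolipoproteins and their enzymes showed no common direction, as 3 of 16 rose (Apoa4, Apof, Apom) and 3 fell (Apoa5, Lipc, Lcat), and the median of 0.35 was -0.03 with nontumor 1 and 2 as the only reference. Apof passed in 8 of 22 alternatives. Apom, the carrier of sphingosine 1-phosphate, went from 83.6, 133, 41.7 and 52.1 to 455, 414, 303 and 237 (2.27 ± 0.32).

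In sugar metabolism, the pentose phosphate genes that passed all rose, and the balance of gluconeogenesis genes depended on the reference. Of 14 gluconeogenesis genes 6 fell and 2 (Pck2, Gpt2) rose (median -0.48), but with nontumor 1 and 2 alone 2 fell and 2 rose. Pck1, the cytosolic phosphoenolpyruvate carboxykinase, was at 3208, 2567, 3883 and 4308 in nontumor and 287, 499, 843 and 1041 in tumor (-2.52 ± 0.35, adjusted p = 7.34e-05), whereas the mitochondrial form Pck2 rose (1.33 ± 0.23, adjusted p = 0.000479). G6pc, which releases free glucose, was at 109, 96.8, 1169 and 971 in nontumor and 41.7, 58.9, 44.1 and 102 in tumor (-2.5 ± 0.64, adjusted p = 0.00708), so that nontumor 1 and 2 were near tumor 4 and nontumor 3 and 4 were far higher. The glucagon receptor Gcgr fell (-1.44 ± 0.24), and pyruvate carboxylase Pcx (-0.25 ± 0.19) and Fbp1 (-0.32 ± 0.35) did not pass. Of 10 pentose phosphate genes 5 rose and none fell, and 3 rose with nontumor 1 and 2 alone. G6pdx, the enzyme that commits glucose to NADPH production, was at 3.02, 6.201, 3.74 and 4.06 in nontumor and 25.9, 22, 18.9 and 13.7 in tumor (2.01 ± 0.26, adjusted p = 5.31e-05). Tkt (1.12 ± 0.29), Pgd (0.89 ± 0.23), Pgls and Prps2 also rose.

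Glycolysis as a whole showed a share of calls near the background, with 3 of 26 genes up and 5 down and a median of 0.16 that turned to -0.07 on the deposited scale. Ldha, which reduces pyruvate to lactate, was at 222, 225, 114 and 93.9 in nontumor and 337, 597, 528 and 342 in tumor (1.51 ± 0.29, adjusted p = 0.000931), and Gpi1 and Pgk1 were the other genes that rose. Among the falls were those of Pfkm, the enolase Eno3 (-1.35 ± 0.28) and the fructose-2,6-bisphosphate enzymes Pfkfb1 (-1.08 ± 0.24) and Pfkfb3 (-1.8 ± 0.30). Of 15 glycogen genes 5 rose, namely the primer protein Gyg (1.85 ± 0.25), Pygb, Ugp2, Pgm1 and Pgm2, and 2 fell, among them Pygl. The list's median of -0.38 turned to 0.41 with nontumor 1 and 2 as the only reference.

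Of 36 tested genes of amino acid breakdown 20 fell and 1, the glycine decarboxylase Gldc, rose (median -0.75). Against nontumor 1 and 2 alone 10 fell, and on deposited TPM 6 did. Hpd, which acts in tyrosine catabolism, was at 1491, 1322, 1877 and 2247 in nontumor and 94.7, 51.9, 194 and 503 in tumor (-3.51 ± 0.55, adjusted p = 0.000231), and Tat, the first tyrosine enzyme, at 525, 442, 1556 and 1543 and 69.8, 31.2, 76.9 and 202 (-3.48 ± 0.51). Prodh, the proline dehydrogenase, went from 73.5, 63.5, 69.2 and 71.8 to 3.52, 4.67, 8.43 and 14.4 (-3.17 ± 0.29, adjusted p = 1.86e-06). The histidine enzymes Uroc1 (-0.44 ± 0.22) and Ftcd (-0.32 ± 0.25) did not pass. In the urea cycle and glutamine list 4 of 11 genes fell, namely Cps1 (-1.65 ± 0.28), Asl (-1.27 ± 0.28), Ass1 (-0.90 ± 0.33, adjusted p = 0.044) and Glul, whereas Otc (-0.76 ± 0.43) and Arg1 (-0.20 ± 0.34) did not pass. Ass1 was past the threshold in 10 of 22 alternatives, and 2 of the 11 fell with nontumor 1 and 2 alone.

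The serine synthesis genes Phgdh and Psat1 were low in nontumor liver. Phgdh, the first enzyme of serine synthesis, was at 2.06, 13.7, 0.455 and 1.34 in nontumor and 80.5, 57.7, 50.7 and 40.8 in tumor (4.01 ± 0.49, adjusted p = 2.49e-05), and Psat1, the second, at 1.57, 6.04, 0.531 and 0.392 and 41.2, 19.98, 18.97 and 16.1 (3.23 ± 0.43). The folate enzyme Mthfd2 rose too (1.54 ± 0.25, adjusted p = 0.000309). In the same list of 22 one-carbon genes 6 rose and 8 fell, among the latter Gnmt, the methyl-consuming glycine methyltransferase, at 349, 301, 695 and 616 in nontumor and 30.5, 42.5, 169 and 182 in tumor (-2.52 ± 0.49). Tumor 1 and 2 held less Gnmt than tumor 3 and 4. Bhmt (-0.45 ± 0.47) and Mat1a (-0.73 ± 0.30) did not pass.

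Few mitochondrial energy genes passed. Of 24 TCA cycle genes none rose and 3 fell (Aco1, Idh3g, Pdhb), and the median of 0.00 was -0.32 on the deposited scale. Of 42 nuclear-encoded respiratory chain genes 2 rose (Ndufb8 and Cox7b) and 1 fell (Ndufv1), which is below the background share. Cox6a1, a subunit of cytochrome oxidase, was at 1107, 876, 126 and 292 in nontumor and 651, 684, 1024 and 724 in tumor (0.80 ± 0.58, adjusted p = 0.307). With nontumor 3 and 4 as the only reference 24 of the 42 rose, with nontumor 1 and 2 none did, and the median went from 0.88 to -0.16. Mitochondrially encoded genes were not analysed here.

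Male-biased liver genes were lower in tumor. Of 29 tested male-biased genes 25 fell and none rose (median -3.09), and in all settings tried 22 to 27 fell. Female-biased genes moved the other way, with 7 of 12 tested members rising and 2 (Fmo2, Acot3) falling. Cyp2b9, a female-biased P450, was at 15.5, 66.6, 15.5 and 6.97 in nontumor and 259, 101, 113 and 156 in tumor (2.91 ± 0.73, adjusted p = 0.00613). Cyp2a4, a female-biased steroid hydroxylase, went from 61.9, 109.5, 11.6 and 17.1 to 1751, 248, 242 and 145, with tumor 1 far above the other libraries (3.31 ± 0.90, adjusted p = 0.01). Sult1e1, the estrogen sulfotransferase, was at 0, 0.121, 0 and 0.448 and 2.53, 8.79, 9.22 and 0.954 (2.18 ± 0.43). Of the 22 female-biased genes written, 8 were below the expression filter and 2 were not analysed here, so the 12 are the members expressed in at least some groups.

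Growth hormone signalling, which sets the male pattern in liver, is read here from its receptor and targets. Of 16 genes 8 fell and 2 (Igfbp1, Igf2r) rose, and with nontumor 1 and 2 alone 4 fell. Igf1, the circulating growth factor, was at 187, 172, 133 and 199 in nontumor and 22.6, 46.9, 59.9 and 112 in tumor (-1.7 ± 0.35, adjusted p = 0.00176), and Igfals, which stabilizes it in blood, fell by 1.94 ± 0.44. The prolactin receptor Prlr fell (-1.59 ± 0.27), as did the growth hormone receptor Ghr, the feedback inhibitors Socs2 and Cish, and Stat5b. Igfbp1, a binding protein raised by fasting and stress, was at 57.98, 122, 49.3 and 68.2 and 445, 503, 231 and 162 (2.1 ± 0.42, adjusted p = 0.0013). Igfbp2 (-0.30 ± 0.46) and Igfbp4 (0.21 ± 0.25) did not pass.

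Pericentral genes, which mark the hepatocytes around the central vein and depend on Wnt signalling, fell in 23 of 28 cases, and 1, Slc1a4, rose (median -1.78). Glul, glutamine synthetase, was at 351, 276, 179.5 and 204 in nontumor and 92.1, 102, 97.6 and 137 in tumor (-1.2 ± 0.25, adjusted p = 0.00206), and Cyp2e1, the ethanol-oxidizing P450, at 3081, 2631, 1086 and 1844 and 302, 245, 423 and 1368 (-2.14 ± 0.51). Tumor 4 kept more Cyp2e1 than the other tumors and more than nontumor 3. Cyp2c37 fell by 4.14 ± 0.68. Among 22 periportal genes 10 fell and 4 (Hsd17b13, Aldh1b1, Cdh1, Apoa4) rose. Cyp2f2, a periportal P450, was at 362, 255, 346 and 332 in nontumor and 15.7, 13.9, 18.8 and 40.8 in tumor (-3.92 ± 0.48, adjusted p = 2.47e-05), and Aldh1b1, a mitochondrial aldehyde dehydrogenase of progenitor cells, rose from 4.32, 31.3, 5.801 and 10.5 to 72.6, 48.5, 289 and 142 (3.36 ± 0.58). The share that fell was 45.5% in the periportal and 82.1% in the pericentral list.

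Drug metabolism genes fell more often than they rose. Of 37 tested phase I genes 23 fell and 2 rose (Cyp2b9 and Cyp3a59), and of 34 conjugation genes 12 fell and 2 rose (Sult1c2 and Gstm5). The mean log2 level of the conjugation genes was 6.07, 5.77, 4.89 and 5.39 in nontumor and 4.82 to 4.90 in tumor. Nontumor 3 thus lay inside the tumor range. The sulfotransferase Sult2a8 was at 475, 372, 437 and 516 in nontumor and 15.9, 27.6, 20.4 and 83.5 in tumor (-3.87 ± 0.39, adjusted p = 4.41e-06). Cyp2d26, an abundant member, did not pass (-0.27 ± 0.24, adjusted p = 0.404). Several of these families (Cyp2c, Cyp2d, Cyp3a, Ugt2b, Gstm) share sequence, and the split of reads between copies is uncertain.

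Of 27 tested liver transcription factors 14 fell and 1, Foxa3, rose (median -0.66). Against nontumor 1 and 2 as the only reference 7 fell and none rose, and on deposited TPM 5 fell. Hnf4a, the central hepatocyte factor, was at 282, 277, 291 and 243 in nontumor and 257, 278, 264 and 233 in tumor (-0.08 ± 0.19, adjusted p = 0.77), and Cebpa did not pass either (0.14 ± 0.21). Nr1i3, the receptor CAR that controls drug metabolism, went from 26.7, 20.6, 26.4 and 27.2 to 1.67, 0.837, 1.19 and 1.88 (-3.47 ± 0.27, adjusted p = 4.7e-07). Foxa2, a pioneer factor of liver genes, was at 56.9, 61.5, 61.97 and 56.9 and 19.96, 19.6, 18.7 and 16.3 (-1.62 ± 0.17, adjusted p = 5.01e-06). In both genes the groups did not overlap. Of 19 clock genes 6 fell and none rose, whereas 2 fell with nontumor 1 and 2 alone and 8 with nontumor 3 and 4 alone. Those that fell included Nfil3 (-1.79 ± 0.27), Tef (-1.28 ± 0.34), Hlf (-1.1 ± 0.26) and Bhlhe41 (-1.06 ± 0.33), while Dbp (-0.19 ± 0.54) and Bhlhe40 (0.11 ± 0.34) did not pass. Dbp was at 23.7 and 24.4 in nontumor 1 and 2 and 72.0 and 102 in nontumor 3 and 4. The hour at which tissue was taken was not given in the sources used here.

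**Figure D4:**
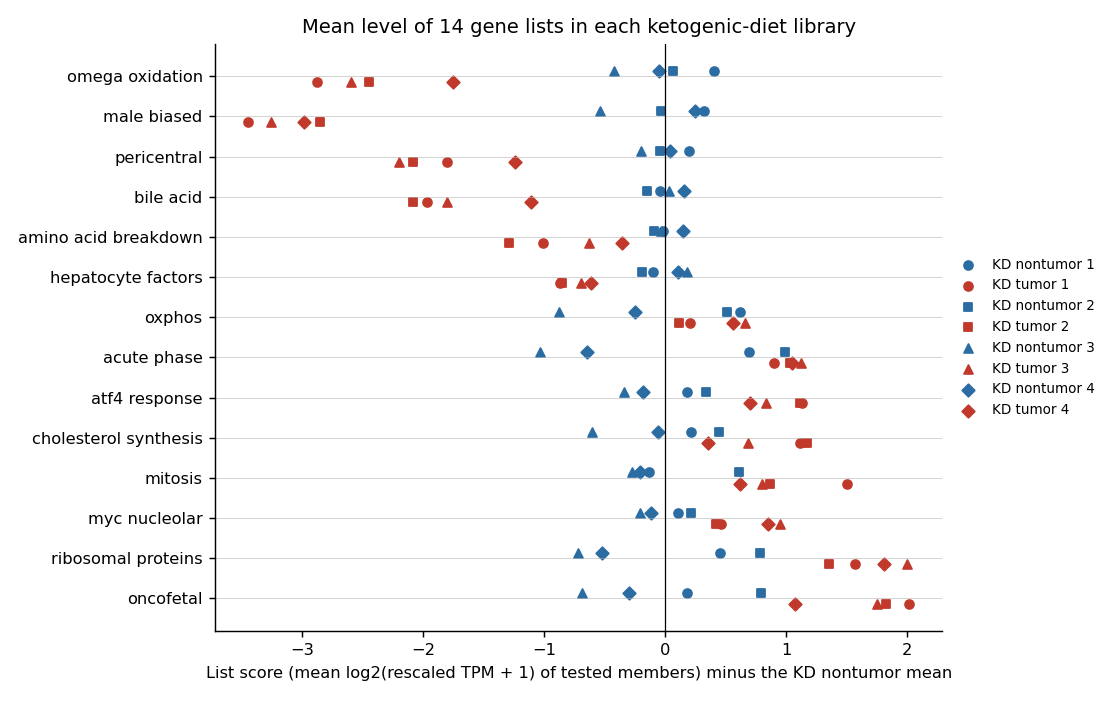
Each symbol is 1 KD library (blue nontumor, red tumor, symbol shape for the replicate number), placed at the mean log2(rescaled TPM + 1) of a list's tested members minus the KD nontumor mean. Omega oxidation, male-biased, pericentral and bile acid genes lie well below nontumor in all 4 tumors, ribosomal protein genes lie above, and for respiratory chain and acute phase genes nontumor 1 and 2 lie near the tumors while nontumor 3 and 4 lie below all of them.

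Of 26 tested oncofetal genes 14 rose and 1, Peg3, fell (median 1.00), and with nontumor 1 and 2 alone 9 rose and 2 fell. H19, an imprinted fetal RNA, was at 42.5, 454, 1.65 and 15.4 in nontumor and 1631, 230.3, 2436 and 1640 in tumor (5.19 ± 1.43, adjusted p = 0.011), and nontumor 2 exceeded tumor 2. Tspan8, a tetraspanin of epithelial tumors, was at 4.101, 9.45, 0 and 1.14 and 86.8, 73.2, 46.1 and 20.8 (3.96 ± 0.70). Cd24a (0.92 ± 0.48) and Mdk (0.34 ± 0.30) did not pass, and Igf2, Dlk1, Igf2bp1, Igf2bp3 and Hmga2 were below the expression filter.

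Proliferation genes were low in nontumor liver. Of 24 tested mitosis genes 13 rose and none fell (median 0.86). Mki67, the proliferation antigen, was at 1.63, 5.87, 1.21 and 1.19 in nontumor and 16.9, 5.702, 6.52 and 9.79 in tumor (1.7 ± 0.39, adjusted p = 0.00339). Nontumor 2 held as much Mki67 as tumor 2, and tumor 1 had the most. Ube2c, a ubiquitin-conjugating enzyme of anaphase, was at 3.401, 8.91, 0.608 and 2.03 and 28.2, 17.7, 14.5 and 11.9 (2.25 ± 0.45), and Cdk1 rose by 1.505 ± 0.27. Against nontumor 1 and 2 as the only reference 3 of the 24 mitosis genes rose. Of 28 replication genes 9 rose and 2 fell, and with nontumor 1 and 2 alone 2 rose and 2 fell. Ccne1, the G1/S cyclin, was at 0.699, 1.47, 0.1698 and 1.15 in nontumor and 11.3, 13.4, 40.5 and 11.4 in tumor (3.27 ± 0.39, adjusted p = 1.89e-05). The 2 that fell were Mcm10 (-2.01 ± 0.36) and Tk1 (-1.4 ± 0.21). Ccnd1, the G1 cyclin driven by ERK, was at 2.503, 2.87, 1.44 and 1.42 and 8.27, 8.48, 18.9 and 7.8 (1.9 ± 0.26, adjusted p = 8.76e-05).

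Genes for the cytosolic ribosome rose almost without exception. Of 71 ribosomal protein genes 69 rose and none fell, with a median of 1.69 against 0.01 for all tested genes. Rpsa was at 346, 435, 180.0 and 163 in nontumor and 1511, 1470, 1449 and 1287 in tumor (2.46 ± 0.28, adjusted p = 1.53e-05), and Rps12 at 166, 270.1, 54.9 and 58.3 and 676, 480.0, 709 and 713 (2.53 ± 0.41). Rps28 (0.60 ± 0.39, adjusted p = 0.251) and Rps10 (-0.06 ± 0.27, adjusted p = 0.875) were the 2 that did not pass. Between 50 (nontumor 1 and 2 as the only reference) and 69 of them rose in every setting except deposited TPM with all 16 libraries in 1 fit, where 5 did. These genes have short transcripts, and with length and GC trends removed from each library 66 still rose, with a median of 1.53. Ribosomal protein genes also have many processed pseudogenes that can share reads.

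Genes of nucleolar ribosome assembly and other MYC targets followed, with 20 of 38 rising and none falling (median 0.67). Npm1, a nucleolar chaperone, was at 71.5, 122, 29.4 and 44.8 in nontumor and 186, 234, 356 and 371 in tumor (2.22 ± 0.36, adjusted p = 0.000316). Srm, spermidine synthase, went from 35.7, 40.8, 28.4 and 29.04 to 82.9, 103, 129.5 and 116 (1.65 ± 0.25, adjusted p = 0.000166), and Nme1, a nucleoside diphosphate kinase, from 19.8, 16.6, 1.35 and 4.74 to 36, 29.9, 39.1 and 25.6 (1.99 ± 0.49). Mybbp1a (0.47 ± 0.19) and Hspe1 (0.77 ± 0.30) did not pass. Of the 38, 11 rose against nontumor 1 and 2 alone. On the deposited scale 1 of the 38 rose with all 16 libraries in the fit and 9 with the 8 KD libraries alone.

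Of 20 RAS and ERK output genes 7 rose and 1, Il1rap, fell (-1.47 ± 0.28), and with nontumor 1 and 2 alone 4 rose and 2 fell. Dusp5, a nuclear ERK phosphatase induced by ERK itself, was at 11.1, 8.33, 3.29 and 3.49 in nontumor and 50.8, 59.8, 30.3 and 11.9 in tumor (2.3 ± 0.47, adjusted p = 0.00165), and the cytokine gene Lif at 0.0713, 0.795, 0 and 0.639 and 7.86, 9.51, 8.71 and 3.72 (2.6 ± 0.32, adjusted p = 2.46e-05). The immediate early gene Egr1, which also responds to tissue handling, spanned 15.97 to 172 in nontumor and 64.2 to 211 in tumor (0.45 ± 0.61).

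Of 28 tested genes of the amino acid response driven by ATF4, 15 rose and 3 (Cebpb, Shmt2, Aars) fell, with a median of 0.78. In this list 10 rose against nontumor 1 and 2 alone and 4 on deposited TPM. The fall of Aars passed in 5 of 22 alternatives. Asns, asparagine synthetase, was at 1.65, 5.99, 0.496 and 1.83 in nontumor and 35.9, 27.1, 39.03 and 29.8 in tumor (3.5 ± 0.33, adjusted p = 3.08e-06), and the mTORC1 inhibitor Ddit4 at 12.2, 20.6, 6.95 and 6.18 and 39.3, 61.6, 60.1 and 25.7 (1.99 ± 0.40). Atf4 itself (0.38 ± 0.15, adjusted p = 0.0603) and the stress hormone Gdf15 (0.76 ± 0.33) did not pass. Chaperones of the endoplasmic reticulum changed less, as 5 of 22 (Canx, Pdia6, Dnajc3, Sec61b, Atf6) rose and 2 (Herpud1, Syvn1) fell, with a median of 0.49. With nontumor 1 and 2 as the only reference none rose, 1 fell and the median was -0.03. Hspa5, the chaperone BiP, was at 316, 278, 147 and 199 and 342, 288, 336 and 437 (0.62 ± 0.28, adjusted p = 0.104). NRF2 targets had 4 rising (Srxn1, G6pdx, Pgd, Akr1b7) and 4 falling (Gsta2, Gstm1, Akr1c14, Ugdh) of 23, and their median of 0.14 was -0.19 on the deposited scale. In that list Gstm1 fell from 3313, 2188, 639.8 and 1214 to 629.8, 411, 418 and 500.3 (-1.67 ± 0.47), and Osgin1 did not pass (0.64 ± 0.38). Of 18 hypoxia genes 2 rose (Ak4, Ddit4) and 3 fell (Vegfa, Pfkfb3, P4ha2), which is close to the background. Vegfa was at 144, 131, 238 and 199.9 and 61.1, 52.03, 54.9 and 73.3 (-1.52 ± 0.34, adjusted p = 0.00305).

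Promoter sequence was examined for these stress and growth lists, several of whose members rose. Windows came from RefSeq (GRCm38.p6), each from 250 bases before to 50 after a gene's start, and 10291 tested genes had 1. The ATF4 element TGATGNAA, searched on both strands, occurred in 8 of 24 promoters of the ATF4 list (33.3%) and in 2.35% of all tested promoters. The E-box CACGTG, which is its own reverse complement, occurred in 8 of 30 promoters of the MYC and nucleolar list (26.7%) against 10.1% of tested promoters. Over all genes that rose in tumor the shares were 2.51% and 10.8%, and over those that fell 2.06% and 9.0%, all near the share in tested promoters. These lists were assembled from known targets, so such matches are a description of the lists, not sites shown to be used in these samples. Printed here are 6 windows of 180 bases that end just before the start, 3 chosen for the ATF4 element and 3 for the E-box. Capitals mark the motif for which a window was chosen, and the Fgf21 window also holds an E-box, left in lower case. Asns, Fgf21, Ldha and Nme1 are described beside their lists, while Nupr1 and Cdk4 were added after their values and motifs were seen.
Asns, chr6:7693210-7693389, minus strand: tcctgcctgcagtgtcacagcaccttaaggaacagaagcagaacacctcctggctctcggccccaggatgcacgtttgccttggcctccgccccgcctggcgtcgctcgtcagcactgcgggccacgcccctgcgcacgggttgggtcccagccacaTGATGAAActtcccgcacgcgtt
Fgf21, chr7:45615491-45615670, minus strand: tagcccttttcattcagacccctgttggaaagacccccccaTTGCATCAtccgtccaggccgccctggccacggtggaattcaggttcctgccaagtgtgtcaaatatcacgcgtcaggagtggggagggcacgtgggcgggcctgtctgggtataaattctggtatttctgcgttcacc
Nupr1, chr7:126625471-126625650, minus strand: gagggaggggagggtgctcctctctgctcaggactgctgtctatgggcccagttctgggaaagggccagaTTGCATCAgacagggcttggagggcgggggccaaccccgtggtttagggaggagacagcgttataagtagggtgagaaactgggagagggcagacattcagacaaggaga
Ldha, chr7:46845624-46845803, plus strand: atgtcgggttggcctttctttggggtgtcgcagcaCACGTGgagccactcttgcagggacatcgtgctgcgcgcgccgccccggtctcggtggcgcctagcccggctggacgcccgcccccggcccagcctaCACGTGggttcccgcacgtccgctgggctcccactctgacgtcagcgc
Nme1, chr11:93968273-93968452, minus strand: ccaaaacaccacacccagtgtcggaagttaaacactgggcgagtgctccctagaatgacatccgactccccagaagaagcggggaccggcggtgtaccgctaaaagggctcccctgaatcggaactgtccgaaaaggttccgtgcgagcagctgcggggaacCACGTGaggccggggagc
Cdk4, chr10:127063355-127063534, plus strand: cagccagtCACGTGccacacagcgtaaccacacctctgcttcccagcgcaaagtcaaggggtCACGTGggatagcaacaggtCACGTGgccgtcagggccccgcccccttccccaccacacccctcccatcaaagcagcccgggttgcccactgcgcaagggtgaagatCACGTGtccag

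The ATF4 element begins 23 bases before the start in Asns, 139 in Fgf21 and 110 in Nupr1, in the last 2 on the opposite strand. Ldha holds 2 E-boxes in this window, Nme1 1 and Cdk4 4. Nupr1, a stress-induced chromatin protein, was at 5.37, 5.68, 1.44 and 1.55 in nontumor and 16.7, 20.7, 5.55 and 8.72 in tumor (1.63 ± 0.48, adjusted p = 0.0151). Cdk4, the kinase partner of Ccnd1, was at 30.03, 31.8, 25.3 and 27.8 and 39.05, 40.5, 68.8 and 47.2 (0.71 ± 0.18, adjusted p = 0.00728). All 6 of these genes rose, with overlapping groups in Nupr1 alone. Not every list member with the motif rose. In the ATF4 list Aars holds the ATF4 element and fell, and Atf3 and Chac1 hold it and did not pass. In the MYC and nucleolar list Mybbp1a holds the E-box and did not pass. The full 300-base window of Nupr1 also holds an E-box. Of 3 further motifs searched on both strands, the AP-1 element TGANTCA was in 37.5% of 24 acute phase promoters against 5.37% of tested ones, and TATAAA in 64.5% of 31 phase I promoters against 7.75%. The palindromic element of HNF1 was in none of the tested windows, which says only that these letters are not there.

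Acute phase and immune genes rose against nontumor 3 and 4 in particular. Of 29 acute phase genes 14 rose and 2 fell (median 0.83). The metallothioneins Mt1 and Mt2, which bind zinc and copper, rose, Mt2 from 4.75, 15.9, 1.15 and 1.42 to 83.9, 135, 37.2 and 50.04 (3.86 ± 0.61, adjusted p = 0.000227). Hamp, which encodes the iron hormone hepcidin, fell from 15030, 12430, 4290 and 5173 to 519, 272, 331 and 999 (-4.11 ± 0.87, adjusted p = 0.00206), and Socs3 was the other gene that fell. The fibrinogen gene Fgg (0.83 ± 0.39) and Serpina3k (-1.17 ± 0.52) did not pass. With nontumor 1 and 2 as the only reference 9 acute phase genes rose, 5 fell and the median was -0.10, while with nontumor 3 and 4 alone 19 rose and the median was 1.70. Of 32 coagulation and complement genes 4 rose (Serpind1, Kng1, Kng2, Cfi), with Kng1 at 1032, 1157, 702 and 902 in nontumor and 3806, 3440, 3050 and 2579 in tumor (1.77 ± 0.27), and 7 fell, among them C6 (-3.33 ± 0.35) and Mbl1 (-1.36 ± 0.36). The central complement gene C3 had overlapping groups (0.15 ± 0.32).

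Hepatocyte markers were at high levels in both tissues, and their summed level was higher in all 4 tumor libraries than in any nontumor library. Of 12 hepatocyte markers 6 rose and 2 fell, and their summed level was 33570 to 95980 in nontumor and 146300 to 215700 in tumor. Trf, transferrin, was at 3519, 4446, 953 and 1545 in nontumor and 23660, 26000, 12860 and 8473 in tumor (2.88 ± 0.50, adjusted p = 0.000491), and the heme scavenger Hpx at 3736, 4563, 1130 and 2308 and 10140, 8250, 8065 and 7953 (1.73 ± 0.43). Alb was at 33810, 37840, 12000 and 25730 and 83090, 65050, 66410 and 66900 and just missed the threshold (1.48 ± 0.55, adjusted p = 0.0501). The hepatocyte markers that fell were Tat and Cps1. With nontumor 1 and 2 as the only reference 2 of the 12 rose.

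The marker list of Kupffer cells and that of monocytes and tumor macrophages went in opposite directions. Of 13 tested Kupffer cell markers 6 fell and none rose. The sum over all 14 listed ones was 242 to 330 in nontumor and 136 to 182 in tumor. Clec4f, the lectin that defines Kupffer cells, was at 95.9, 62.9, 78.6 and 74.4 in nontumor and 23.2, 7.12, 15.6 and 15.1 in tumor (-2.37 ± 0.27, adjusted p = 1.5e-05). Timd4 (-1.8 ± 0.31), Marco (-2.13 ± 0.55) and Cd163 (-1.94 ± 0.30) fell as well, and Cd5l did not pass (-0.47 ± 0.40). Of 23 monocyte and tumor macrophage genes 11 rose and none fell, though several are also made by hepatocytes or tumor cells. The monocyte genes Ly6c2, Ccr2 and Itgam, with Cd68 and Trem2, were among the 12 that did not pass. Cx3cr1 and Lyz2 were among the 11 that rose. Spp1, osteopontin, was at 157, 247, 32.5 and 78.1 in nontumor and 887, 2548, 749 and 784 in tumor (3.41 ± 0.55, adjusted p = 0.000271), and the lipopolysaccharide receptor Cd14 at 12.9, 16.7, 6.78 and 2.89 and 58.6, 58.8, 50.9 and 31.5 (2.42 ± 0.41). C1qa (0.73 ± 0.38) and Apoe (0.76 ± 0.53) did not pass. Of 9 MHC class II genes 6 rose (median 1.00), with Cd74 at 151, 103, 59.8 and 75.2 and 209.7, 314, 344 and 135 (1.35 ± 0.33, adjusted p = 0.00497). With nontumor 1 and 2 as the only reference 5 of the 23 macrophage genes and none of the class II genes rose. The part of these cells in the other gene lists was not tested.

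Other immune and stromal lists had members rising and falling, or few that passed. Of 38 interferon genes 9 rose and 3 (Mx2, Irf1, Stat2) fell (3 rose and 2 fell with nontumor 1 and 2 alone), with the chemokine Cxcl9 at 10.8, 7.33, 3.07 and 2.86 in nontumor and 27.5, 19.6, 30.4 and 13.2 in tumor (1.85 ± 0.34). The median of this list, 0.28, turned to -0.04 on the deposited scale. Of 13 tested T and NK cell genes 1, the granule protein Nkg7, rose (1.56 ± 0.41), and of 8 B and plasma cell genes none passed. Among 17 stellate and fibroblast genes 6 rose and 2 (Lrat, Hand2) fell, while 1 rose and 1 fell with nontumor 1 and 2 alone. Acta2, smooth muscle actin, was at 10.5, 11.7, 5.87 and 4.305 in nontumor and 75.2, 87.8, 49.3 and 42.8 in tumor (2.86 ± 0.40, adjusted p = 9.37e-05), and collagen Col1a1 at 9.03, 12.3, 5.13 and 5.13 and 40.4, 65.96, 24.6 and 28.2 (2.17 ± 0.48). Of 11 sinusoidal endothelial genes 2 fell (Stab1, Bmp2), and of 15 capillary genes 4 rose (Cd34, Emcn, Esm1, Sox18), none of them with nontumor 1 and 2 alone. Of 22 alternatives Emcn passed in 3, Cd34 in 6 and Stab1 in 7. Cholangiocyte markers did not rise apart from Spp1, and 2 of the 9 tested fell, among them Onecut2, with Sox9 (0.22 ± 0.22) and Krt19 (-0.86 ± 0.50) not past the threshold. None of 6 red cell genes passed, and Hba-a1 ranged from 340 to 2621 in tumor. Among markers of tissues outside the liver, the filter left 3 adipose genes, of which Fabp4 rose and Cfd fell, the pancreas gene Cela1, which rose, and 3 muscle or gut genes, of which Fabp2 rose.

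To ask where the tumor difference on the ketogenic diet departs from that on the normal diet, the interaction was tested. It passed for 82 genes (0.61% of those tested), with 28 differences higher on KD than on ND and 54 lower, while 2411 genes had an unadjusted p under 0.05. This count is unstable: leaving out single libraries gave 9 to 160 genes, KD nontumor 3 and 4 as the only KD nontumor reference gave 1627, and leaving out KD nontumor 2 with KD tumor 4 gave 1. Each of the 82 kept its sign in every alternative in which it was fitted, and beside each gene named below stands the number of the 27 alternatives in which it passed. Of the 82 genes, 19 moved in 1 direction on both diets to different extents, 10 passed on both diets in opposite directions, 35 passed on ND only and 18 on KD only.

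Scd1 passed the interaction test in 26 of 27 alternatives, the most of the 82 genes. On KD it rose in tumor by 3.12 ± 0.39 from the levels above, and on ND the difference was -0.34 ± 0.39 (interaction 3.46 ± 0.55, adjusted p = 0.0179). On ND it stood at 989 ± 79.8 (SD, n = 4) in nontumor and 832 ± 328 (SD, n = 4) in tumor. Lhpp, a phosphatase known as a liver tumor suppressor, was at 50.5, 44.4, 28.6 and 50.1 in KD nontumor and 15.8, 16.8, 10.03 and 19.6 in KD tumor (-1.43 ± 0.28, adjusted p = 0.0013). Its fall on ND was larger, at -4.24 ± 0.28 (interaction 2.81 ± 0.40, adjusted p = 0.0137, 25 of 27 alternatives). Gulo, the last enzyme of vitamin C synthesis, was at 126, 128, 153 and 148 and 107, 126, 71.4 and 91.9 and did not pass on KD (-0.50 ± 0.21), against -2.36 ± 0.21 on ND (interaction 1.85 ± 0.29, adjusted p = 0.0179, 25 of 27).

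Several genes that fell in tumor on ND fell less or did not pass on KD. The interaction was 1.73 ± 0.36 for Glul (adjusted p = 0.041), 3.13 ± 0.61 for the ornithine aminotransferase Oat (adjusted p = 0.0337), 2.96 ± 0.50 for Mup11, 1.77 ± 0.29 for Ehd3 and 2.55 ± 0.44 for Ugt2b37. Glul passed in 10 of 27 alternatives, Oat in 14, Mup11 and Ugt2b37 in 20 and Ehd3 in 23. Oat was at 247, 203, 155 and 311 in KD nontumor and 50.7, 48.5, 38.5 and 144 in KD tumor (-1.85 ± 0.43), against -4.97 ± 0.43 on ND. Inhbe, an activin subunit secreted by hepatocytes, rose on KD (0.60 ± 0.21, adjusted p = 0.0389) and fell on ND (-1.15 ± 0.21), with an interaction of 1.75 ± 0.30 (adjusted p = 0.0225, 22 of 27). The rise of Inhbe on KD alone passed in 10 of 22 alternatives. Cyp2c69 had the interaction 3.51 ± 0.58 (21 of 27), with KD values at or below 2.38 in all 8 libraries. The cell type markers Cd5l (2.77 ± 0.56) and Clec4g (2.16 ± 0.46) did not pass on KD and fell on ND, and their interaction passed in 10 and 8 of 27 alternatives.

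Interactions below 0 included larger falls on KD and smaller rises on KD. Asap3, a GTPase activator, was at 32.8, 24.99, 31.4 and 28.6 in KD nontumor and 5.44, 5.79, 4.74 and 5.001 in KD tumor (-2.28 ± 0.20, adjusted p = 1.62e-06), against -0.39 ± 0.20 on ND (interaction -1.89 ± 0.28, adjusted p = 0.0176, 25 of 27). Tle2, a Groucho corepressor, went from 29.6, 22.7, 33.1 and 29.99 to 3.74, 2.15, 3.62 and 4.29 (-2.76 ± 0.17, adjusted p = 4.69e-08), against -1.39 ± 0.17 on ND (18 of 27). Cyp17a1, a steroid hydroxylase, rose by 0.73 ± 0.17 on KD and 2.38 ± 0.17 on ND (interaction -1.65 ± 0.24, adjusted p = 0.0137, 25 of 27). The carbonyl reductase Cbr3 (0.55 ± 0.39 on KD, 4.05 ± 0.39 on ND), the transaminase Kyat1 (-0.13 ± 0.21, 1.73 ± 0.21) and the semaphorin Sema7a (0.44 ± 0.35, 3.25 ± 0.35) passed on ND only, and their interactions passed in 25, 22 and 20 of 27. The cAMP phosphodiesterase Pde4a fell on KD (-0.96 ± 0.18) with 0.49 ± 0.18 on ND (16 of 27). The endothelial marker Cd34 rose less on KD (0.71 ± 0.26) than on ND (2.62 ± 0.26), an interaction that passed in 8 of 27.

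**Figure D5:**
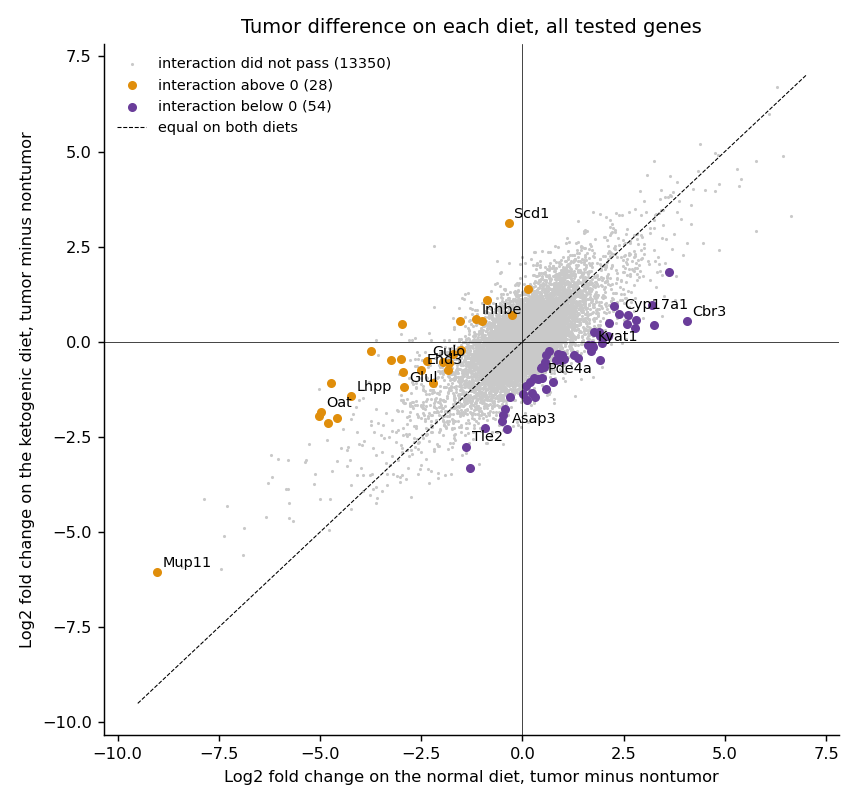
Each point is 1 of 13432 genes, with the log2 fold change of tumor against nontumor on the normal diet on the x axis and on the ketogenic diet on the y axis, and the dashed line marks equal changes. Orange and purple points are the 28 and 54 genes whose difference was higher or lower on KD, among them Scd1 (3.12 on KD), Mup11 (-6.06) and Asap3 (-2.28).

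Of the 4361 genes that passed on KD, 2202 passed in the same direction on ND, which is 50.5% of the KD genes and 57.1% of the 3855 ND genes, and 19 passed in opposite directions. The diets do not share libraries, and a gene that passed on 1 diet alone is not thereby shown to differ between them. For the largest lists the values stood side by side as follows. Male-biased genes had a median of -3.09 on KD and -4.58 on ND, and 1 member passed the interaction test. Ribosomal protein genes had 1.69 and 0.90 with no interaction call, and respiratory chain genes 0.39 and -0.52 with none.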

How the data were processed

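RNA-seq of polyA RNA from 16 mouse liver samples (4 groups of 4) was used as 1 table of 20601 genes. Per the submitters' processing notes, the authors used FastQC, HISAT2, SAMtools and featureCounts with the mm10 build, and the steps that led to TPM were not given in the sources used here. The deposited values are TPM, and the listed genes hold 66.8 to 88.4% of the TPM total in KD libraries. Mitochondrially encoded genes were not analysed here.

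Columns were matched to samples by name, and the nontumor columns carry another letter than the sample titles. TPM values were rescaled by median-of-ratios factors, genes with a TPM of at least 1 in at least 4 libraries were kept (13432), and log2(rescaled TPM + 1) was fitted with limma 3.58.1 (R 4.3.3), with 4 group means, a variance trend and Benjamini-Hochberg adjustment at 0.05. The fit was tested on simulated data with 200 changed genes of 13432, where 65% of 2-fold and 94% of 4-fold changes were recovered and 14 unchanged genes were called. The simulation changed only better expressed genes, drew noise independently for each gene and held no split between nontumor pairs. Its rates therefore need not hold for these data. For 20600 genes the TPM values were whole multiples of 1 read's worth, within 0.001 reads, which gave each library's depth. Alb was the listed gene not solved, so these depths leave it out. Reads were not used in the reported test. Exon lengths and GC content came from GENCODE M21 (97.7% of tested genes matched). Figures and tables used Python 3.11.15.

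The genes named were, by rule, the 12 largest changes per direction among genes with non-overlapping groups, 8 interaction genes per direction, up to 6 genes per list and abundant genes that did not differ. Members named because 5 or fewer of a list moved one way, further members named without a fold change, and Nupr1 and Cdk4, were chosen after their values were seen. A few genes that the rule names are not reported here. The comparison, its lists and its tests were chosen with earlier results of these data known. Alternatives covered scaling, pseudocount, filter, libraries, weights, thresholds, replicate number, length and GC trends, and a count model.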

Additional observations from a re-analysis of the deposited data

Results flagged for a closer look

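Among the 190 groups of 4 libraries whose values are printed, 11 held a library far from the other 3 (gap over range above Dixon's 95% critical value), and chance gives about 1 such group in 20. In tumor 1, Alb reached 83090, Hpx 10140 and Mup11 77.0, each the highest of the 4 tumors. Tumor 2 was the highest for Spp1 at 2548 and the lowest for H19 at 230.3 and Rps12 at 480.0. Tumor 3 was the highest for the cyclins Ccnd1 at 18.9 and Ccne1 at 40.5. In nontumor liver all 3 such values were in replicate 2, which was the highest for Mki67 at 5.87 and Pnpla5 at 3.53 and the lowest for Nr1i3 at 20.6.

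For 21 genes named in the text the tumor difference itself differed between diets by the limma interaction test, given here as the KD difference minus the ND difference in log2 units. It was above 0 for Cyp2c69 (3.51), Scd1 (3.46), Oat (3.13), Mup11 (2.96), Lhpp (2.81), Cd5l (2.77), Ugt2b37 (2.55), Clec4g (2.16), Gulo (1.85), Ehd3 (1.77), Inhbe (1.75) and Glul (1.73). It was below 0 for Cbr3 (-3.50), Sema7a (-2.81), Cd34 (-1.90), Asap3 (-1.89), Kyat1 (-1.86), Cyp17a1 (-1.65), Uroc1 (-1.47), Pde4a (-1.46) and Tle2 (-1.38). The number of such genes over the whole table changed strongly between settings.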

How the results depend on the processing

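No gene that passed in the reported fit and in an alternative changed direction. Of the genes named in the text, 32 had another sign under at least 1 alternative in KD tumor against nontumor, and none of them passed in the reported fit or in that alternative. Of the 239 named genes that passed, 116 passed on deposited TPM, 154 with KD nontumor 1 and 2 as the only reference, and 203 to 235 in the other 20 settings. Not every unstable call is marked beside its gene. Of 22 alternatives Ndufb8 passed in 8, Canx and Pdia6 in 10, and Fmo2, Gpi1 and Fabp2 in 11, among others. The 4361 genes past the threshold became 1111 on deposited TPM (387 higher, 724 lower), 1964 with KD nontumor 1 and 2 as the only reference (881 higher, 1083 lower), 2592 at an adjusted p under 0.01 (1270 higher, 1322 lower) and 2149 with a log2 change of at least 1 as well (1149 higher, 1000 lower). Deposited TPM with the 8 KD libraries alone gave 1155 higher and 3472 lower, and scaling to a common sum gave 1197 higher. Leaving out 1 library gave 3266 to 4498 genes (without KD nontumor 4 and 2). The interaction count of 82 became 14 on deposited TPM, 546 with a common sum, 32 without a filter, 386 with sample weights, 54 with length and GC trends removed, 17 or 1627 with KD nontumor 1 and 2 or 3 and 4 alone, 1 without KD nontumor 2 and KD tumor 4, and 9 to 160 without 1 library (lowest without ND nontumor 2, highest without ND nontumor 4). The cause of these shifts was not tested. With the replicate block, 3909 genes passed on KD (1971 higher, 1938 lower) and 32 by interaction. Replicate numbers did not pair the samples: same-number correlations of deviations on KD were -0.01, 0.07, -0.04 and 0.16. The alternatives with length and GC, with libraries left out together, with the 8 KD libraries on deposited TPM and with limma voom on recovered reads (4309 genes) were chosen after seeing the data. At 5460266 to 12892444 reads a KD library without those of Alb, a level listed at 0 does not show absence.

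These sign changes are given as log2 changes, tumor minus nontumor. Without KD nontumor 2 and KD tumor 4 the sign changed for Bhlhe40 (-0.029), Mup20 (-0.0036), Nr0b2 (-0.15) and Serpina1c (0.079). With KD nontumor 1 and 2 as the only reference the sign changed for Acaa2 (-0.49), Apoa2 (-0.81), Apoe (-0.045), C3 (-0.39), Cox6a1 (-0.38), Dbp (0.70), Ebp (-0.66), Egr1 (-0.50), Fabp1 (-0.30), Fbp1 (0.18), Fgg (-0.10), Ftcd (0.13), Igfbp4 (-0.12), Kyat1 (0.013), Mup20 (-0.76), Rps28 (-0.22) and Srebf1 (0.45). With KD nontumor 3 and 4 as the only reference the sign changed for B2m (0.17), Bhlhe40 (-0.48), Cyp2c69 (0.42), Hba-a1 (-0.33), Igfbp2 (0.22) and Serpina1c (0.35). On deposited TPM (16 libraries or the 8 KD libraries alone) the sign changed for Acaa2 (-0.30), Apoa2 (-0.29), Bhlhe40 (-0.22), C3 (-0.18), Cebpa (-0.19), Ebp (-0.27), Hba-a1 (-0.27), Igfbp4 (-0.12), Mup20 (-0.32), Nr0b2 (-0.23), Nras (-0.12) and Sox9 (-0.062). With length and GC trends removed the sign changed for Acaa2 (-0.18), Acot13 (-0.019), Apoa2 (-0.65), Ebp (-0.047), Fabp1 (-0.11), Hba-a1 (-0.37), Hnf4a (0.049), Mup20 (-0.52), Nr0b2 (-0.10) and Rps10 (0.055). With a common sum the sign changed for Acaa2 (-0.30), Apoa2 (-0.28), Bhlhe40 (-0.22), C3 (-0.18), Cebpa (-0.19), Ebp (-0.26), Hba-a1 (-0.27), Igfbp4 (-0.12), Mup20 (-0.31), Nr0b2 (-0.22), Nras (-0.12) and Sox9 (-0.058). With a pseudocount of 0.1 the sign changed for Cyp2c69 (0.0069). With sample weights the sign changed for Acaa2 (-0.39), Apoa2 (-0.60), C3 (-0.26), Cox6a1 (-0.066), Dbp (0.45), Ebp (-0.47), Egr1 (-0.26), Fabp1 (-0.070), Fbp1 (0.010), Igfbp4 (-0.029), Kyat1 (0.00092), Mup20 (-0.64) and Srebf1 (0.18). With limma voom on recovered reads the sign changed for Hba-a1 (-0.0032). Leaving out 1 library gave Acaa2 -0.21 to 0.23, Apoa2 -0.41 to 0.35, Arg1 -0.38 to 0.015, B2m -0.26 to 0.063, Bhlhe40 -0.14 to 0.33, C3 -0.13 to 0.37, Cyp2c69 -0.58 to 0.0028, Dbp -0.50 to 0.19, Dgat2 -0.17 to 0.080, Ebp -0.27 to 0.34, Egr1 -0.27 to 0.84, Hba-a1 -0.57 to 0.47, Kyat1 -0.22 to 0.0067, Mup20 -0.44 to 0.36, Nr0b2 -0.087 to 0.34, Rps10 -0.16 to 0.054 and Serpina1c -0.16 to 0.13.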
